A study of Mus musculus with 12 samples.

Results

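The nuclear-encoded subunits of the mitochondrial respiratory chain and ATP synthase were followed in Ba/F3 cells expressing RPL10 WT or RPL10 R98S. Genes were taken when their symbol was listed in both the mRNA and the ribosome footprint table and began with Nduf plus a subunit letter and number, with Sdh plus a to d, with Uqcr, with Cox plus 4 to 8, or with Atp5. This gave 79 genes of the 10080 listed in both tables: 37 of complex I, 4 of complex II, 8 of complex III, 13 of complex IV and 17 of complex V. Genes were assigned to complexes by name alone. Ndufa4 and Ndufa4l2 were thus counted in complex I, and an alternative grouping placed Ndufa4 in complex IV. Another 8 matching symbols were listed in the mRNA table only and are described with the tissue isoforms. Ba/F3 is a mouse lymphoid line that grows on interleukin-3. All clones carried a retroviral cDNA of human RPL10 and an shRNA against the endogenous mouse Rpl10, and were single-cell clones chosen for strong knockdown, so each clone is its own derivation. The R98S group was clones 11, 13 and 35 and the WT group was clones 28, 29 and 36, with 1 footprinting (RPF) library and 1 mRNA library from each clone, 12 libraries in all. Before lysis, cells of both groups received cycloheximide at 100 µg/ml for 5 min. The p-values given here measure the spread between 3 clones of each genotype.

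The respiratory chain passes electrons from NADH (complex I) and succinate (complex II) through complex III to oxygen at complex IV, and the proton gradient built by complexes I, III and IV drives ATP synthesis by complex V. Complex II is encoded by nuclear genes alone, whereas the others join nuclear subunits, made on cytosolic ribosomes and imported, with a few core subunits made inside mitochondria. Nuclear subunits are needed in fixed proportions, and many of those in the membrane arms are small proteins with short mRNAs.

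The values were gene counts divided by a size factor for each library, called normalized counts here. The reads behind them numbered 22178094, 21217231 and 20576796 in the R98S mRNA libraries and 6617457, 21620993 and 23136595 in those of WT clones 28, 29 and 36. The footprint libraries held 10883086, 6827929 and 3477723 reads for R98S and 7162305, 5619539 and 4611390 for WT. The mRNA library of WT clone 28 was the shallowest of its kind. Rpl10, the gene targeted by the shRNA, had 2905, 1449 and 2355 normalized mRNA counts in R98S clones 11, 13 and 35 and 4501, 2345 and 2230.2 in WT clones 28, 29 and 36. These ranges overlapped (log2 change -0.42, adjusted p = 0.551 in limma, and a change of -0.09 without WT clone 28 and -0.13 without R98S clone 13). Reads of the human cDNA and of the mouse gene were not separated in these values, so they do not show the depth of the knockdown.

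Markers were read as a check of the cells. Of 5 genes of an interleukin-3 dependent haematopoietic line, the shared receptor beta chain Csf2rb was the most abundant, at 21027 to 64432 mRNA counts over the 6 clones, and Kit was listed at 0 in every mRNA library. Of 9 pro-B cell markers, Cd79a (730.4 to 1357) and Cd79b (163 to 589) were present, while the other 7 had a mean under 10 mRNA counts, with Pax5 and Rag1 listed at 0 in every library. A listing at 0 in the mRNA table does not show that a transcript is absent: the assembly factors Sco2 and Pet117 were at 0 in all 6 mRNA libraries but had 128 to 265 and 32.3 to 73.8 footprint counts. The fibroblast list of 3 genes summed to at most 12.7 and the epithelial list of 3 genes to at most 2.69 in any mRNA library.

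Some of these markers differed between the genotypes. In footprints, Csf2rb, Csf2rb2 and the T cell gene Cd3d were higher in R98S clones and the pan-leukocyte gene Ptprc was lower, each past an adjusted p of 0.1 in limma, and in mRNA Csf2rb2 passed. Ptprc had 3284, 2615 and 3271 footprint counts in R98S clones 11, 13 and 35 and 6877, 8987 and 5365 in WT clones 28, 29 and 36 (log2 change -1.19, adjusted p = 0.0157), without overlap. The footprint call of Csf2rb was missed without R98S clone 11 (adjusted p = 0.134) or WT clone 36 (0.118), and the mRNA call of Csf2rb2 without R98S clone 11 (0.199), R98S clone 35 (0.127) or WT clone 36 (0.121). The 9 pro-B cell markers summed to 1666, 1351 and 1671 mRNA counts in R98S and 1157, 1068 and 896 in WT clones. The 4 T cell genes, led by Lck, summed to 141, 144 and 136 and 69.8, 55.3 and 50.9. Both sums were higher in every R98S clone, and their part in the results on subunit genes was not tested. In these bulk libraries fewer cells of a type and less RNA per cell cannot be told apart.

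The mRNA library of WT clone 28 stood apart from the rest for these genes. The median difference of this library from the other WT clones was 0.43 on the log2 scale over the 78 subunit genes tested, and 65 of the 78 were higher in it. The difference moved with transcript length, taken as the exon bases of the longest coding transcript: over all genes its median was 0.41 for 691 genes with under 1000 exon bases and -0.21 for 5177 genes with 3000 or more. Within the subunit genes it was 0.58 for the 46 with under 1000 exon bases and 0.16 for the other 32. In the footprint library of the same clone the median over 77 subunit genes lay the other way, at -0.23. The part of library quality in the results that rest on this clone was not tested.

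**Figure D1:**
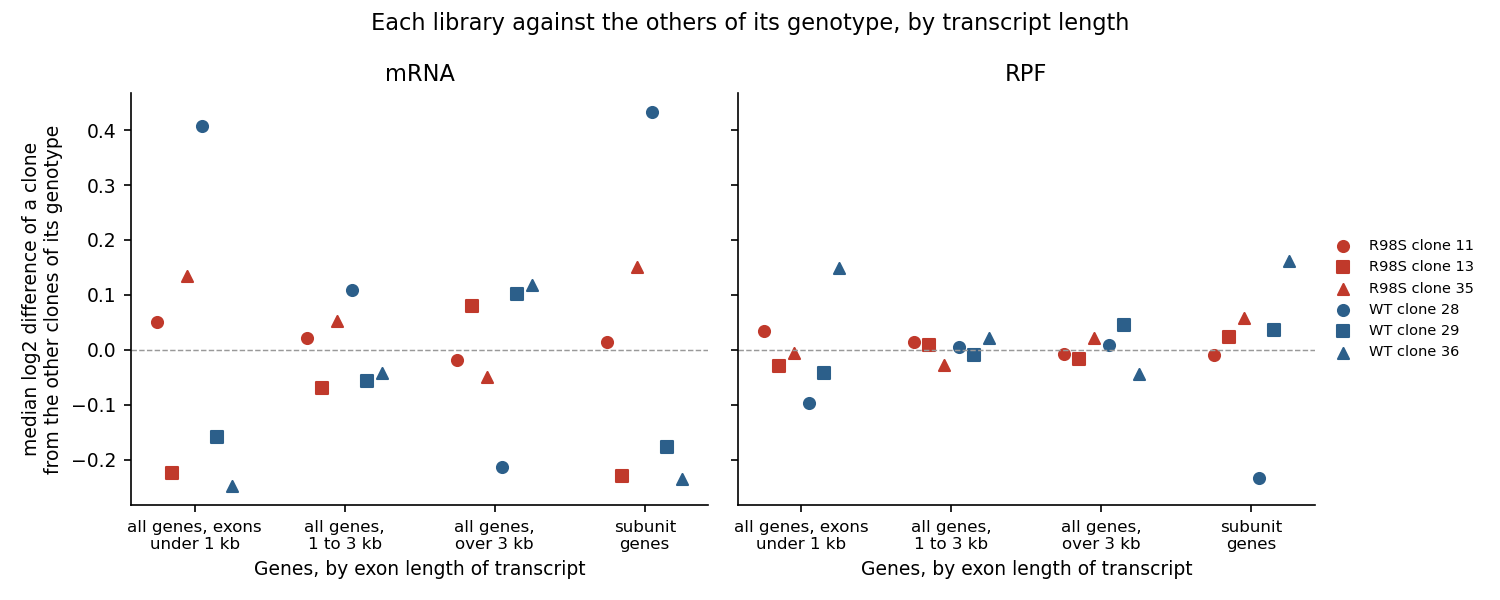
Median log2 difference of each library from the other libraries of its genotype and kind, for all genes in 3 classes of exon length and for the subunit genes (points, 1 per clone). In mRNA, WT clone 28 lies at 0.41 for short transcripts and 0.43 for the subunit genes, above every other clone.

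The subunit genes were abundant. They took 1.16% ± 0.133 (SD, n = 3) of mRNA reads in WT clones and 1.14% ± 0.0715 in R98S clones. The shares were 1.31, 1.10 and 1.06% in WT clones 28, 29 and 36 and 1.13, 1.08 and 1.22% in R98S clones 11, 13 and 35, so the higher WT mean rested on WT clone 28. Of footprint reads they took 1.86% ± 0.172 in WT and 2.03% ± 0.076 in R98S. The 3 R98S footprint shares, 1.97, 2.12 and 2.01%, and the 3 WT shares, 1.66, 1.92 and 1.99%, overlapped, with WT clone 28 lowest. Per kilobase of exon, the median subunit in WT clones was at 3197 normalized mRNA counts in complex IV, 1755 in complex III, 1378 in complex V, 748 in complex I and 728 in complex II, against 143 for the median of all genes tested. The values of complexes III and V differed by less than the SD of complex III between WT clones (401), and those of complexes I and II by less than the SD of complex I (152).

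In ribosome footprints, 3 complex I genes changed in R98S clones: Ndufs5 and Ndufb6 rose and Ndufb4 fell. These were 3 of 77 subunit genes tested (3.9%) at an adjusted p under 0.1 in limma, where 7.76% of the 9580 genes in the footprint table passed. By direction, 2 were higher, against 3.13% of all genes, and 1 was lower, against 4.62%. Ndufa4l2 and Cox6a2 had a mean under 10 normalized counts and were not tested.

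Ndufs5, an accessory subunit of the membrane arm that faces the intermembrane space, had 254, 229.6 and 275 normalized footprint counts in R98S clones 11, 13 and 35 and 92.7, 119 and 150.2 in WT clones 28, 29 and 36. Every R98S clone was above every WT clone, and the log2 change was 1.09 (SE 0.23, adjusted p = 0.0273). Its mRNA was also separated by genotype, at 769, 689 and 844 in R98S and 604, 409.9 and 485 in WT clones, with a log2 change of 0.63 (SE 0.21) that did not pass the threshold (adjusted p = 0.136). Ndufb6, another accessory subunit of the membrane arm, had 674, 664 and 695 footprint counts in R98S and 333, 360.2 and 457 in WT clones. The groups did not overlap, with a log2 change of 0.83 (SE 0.18, adjusted p = 0.0333). Its mRNA counts were 618, 534 and 655 in R98S and 639, 391 and 433 in WT clones and overlapped, with WT clone 28 inside the R98S range. Ndufb4, also in the membrane arm, was the reverse case, with 288, 279 and 371 footprint counts in R98S and 513, 504 and 528 in WT clones. All R98S clones were below all WT clones (log2 change -0.73, SE 0.18, adjusted p = 0.0542). Its mRNA counts of 432, 383 and 489 and 612, 364 and 378 overlapped (log2 change -0.02, and from -0.15 without WT clone 29 to 0.22 without WT clone 28). All 3 calls were lost without R98S clone 11, at an adjusted p of 0.101 for Ndufs5, 0.112 for Ndufb6 and 0.19 for Ndufb4. The log2 changes were then 1.08, 0.84 and -0.68. Without R98S clone 13 only Ndufs5 passed, with 0.119 for Ndufb6 and 0.216 for Ndufb4. Of all 9580 genes, 275 were called without R98S clone 11 and 226 without R98S clone 13, in place of 743. The adjusted p of Ndufb4 was also 0.119 without WT clone 28 and 0.15 without WT clone 36.

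**Figure D2:**
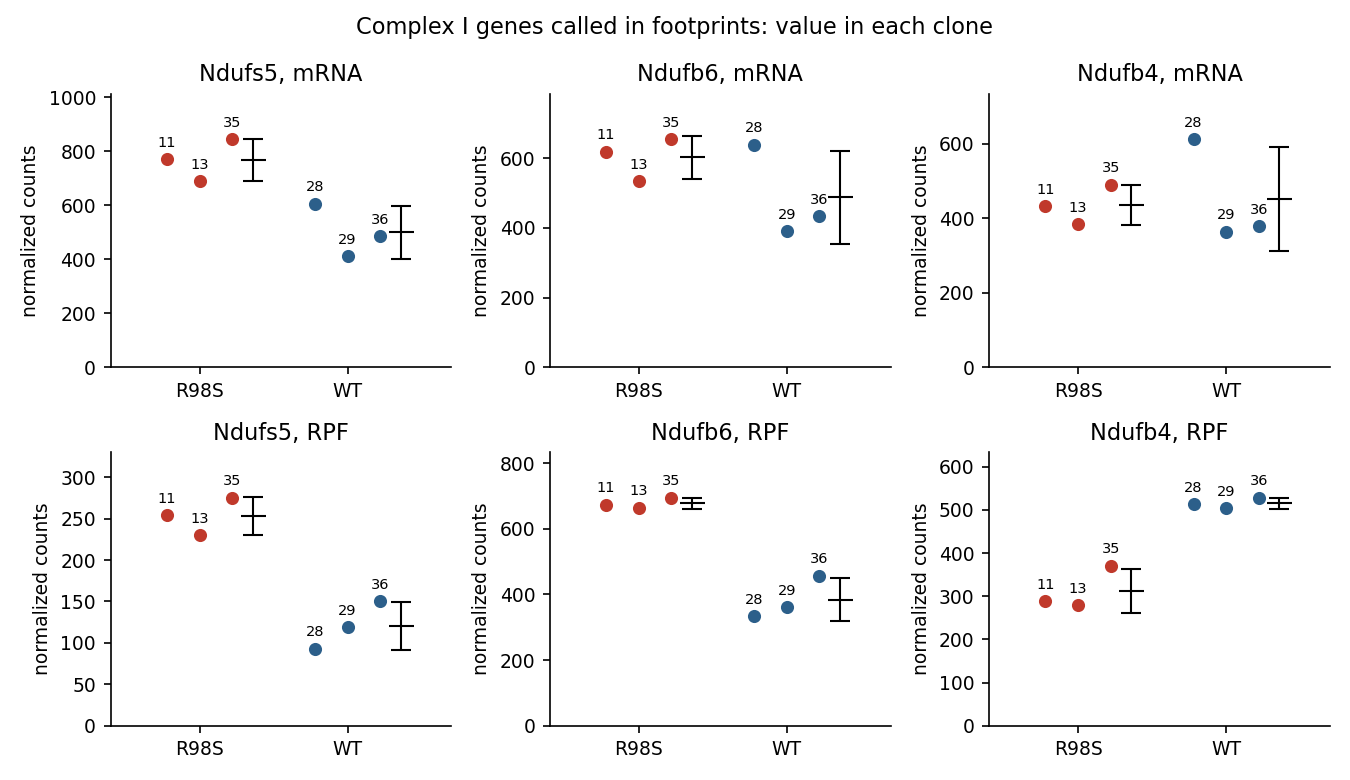
Normalized mRNA counts (top) and footprint counts (bottom) of Ndufs5, Ndufb6 and Ndufb4 in each clone (numbered points), with the mean and SD of each genotype (black bars, n = 3). Footprints of Ndufs5 and Ndufb6 are higher in all R98S clones and those of Ndufb4 lower, while only Ndufs5 mRNA is separated by genotype.

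Ndufs5 and Ndufb6 both lie on chromosome 4, whose 611 tested genes had a median footprint change of 0.21, seen in R98S clones 11, 13 and 35 as 0.21, 0.13 and 0.24. With chromosome medians removed Ndufs5, Ndufb6 and Ndufb4 were past the threshold, as was Ndufb5. The coding sequences of these genes differ in how far short reads can be placed. Of the 30-base windows in the counted coding sequence, 76.7% for Ndufs5 and 100% for Ndufb4 occurred without a mismatch elsewhere in the GRCm38 genome, but only 2.01% for Ndufb6. A window from the middle of each coding sequence shows this, read 5′ to 3′ along the mRNA and in capitals where an identical copy exists elsewhere. The Ndufs5 window (chr4:123715889-123715918, minus strand) has 1 copy, at chr16:42955792-42955821, the Ndufb4 window (chr16:37649116-37649145, minus strand) has 2, at chr15:73809672-73809701 and chr19:25033337-25033366, and the Ndufb6 window (chr4:40277702-40277731, minus strand) has none.
Ndufs5: GGAGTGCAAGATAGAGTTCGATGACTTCGA
Ndufb4: ATTCGCTGGACCTATGCAAGATCAGCAAAT
Ndufb6: ccgctccagtctcttcgctgtttctcatgt
The footprint values of Ndufs5 and Ndufb4 are uncertain, since reads shared with such copies may be dropped or placed on either. What part this had in their changes was not tested.

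No other member of complex I was called by limma in footprints. Of the 36 complex I genes tested, 20 had a footprint change above 0 and 16 below, with a median of 0.07, and without WT clone 28 the median was -0.02 with 17 above 0. The 10 tested genes of the NADH-oxidising N module had a median of 0.07, the 6 of the quinone-reducing Q module 0.11 and the 20 of the membrane arm and other accessory subunits 0.05. For 12 of the 36, footprint values of R98S and WT clones lay in separate ranges that did not overlap. Among these, Ndufb5 was at 1503, 1242 and 1233 in R98S and 760.4, 918 and 1027 in WT clones, with a log2 change of 0.56 (adjusted p = 0.118), and every R98S clone was higher. It was called by DESeq2 on the recovered reads, and by limma with chromosome medians removed. Over all 5 complexes the ranges did not overlap for 16 of 77 genes (11 higher and 5 lower in R98S), where 25.3% of all genes in the footprint table had ranges that did not overlap.

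Outside complex I limma called no gene in footprints. In complex II, the succinate dehydrogenase, the largest change was that of the membrane anchor Sdhc, with 1561, 1656 and 1182 footprint counts in R98S and 1143, 1176 and 1194 in WT clones (log2 change 0.31, adjusted p = 0.368). R98S clone 35 lay inside the WT range. The other 3 genes of the enzyme had changes below 0, and the ranges of the iron-sulfur subunit Sdhb and the anchor Sdhd did not overlap. In complex III, Uqcrq, a small subunit, had 1420.5, 1827 and 1390.4 footprint counts in R98S and 1142, 901 and 1145 in WT clones. Its R98S values were all above the WT values (log2 change 0.54, adjusted p = 0.138), and DESeq2 on the recovered reads called it together with Ndufb5. In complex IV, Cox7a1, the isoform of heart and skeletal muscle, had only 10.1, 19.3 and 16.8 footprint counts in R98S and 17.2, 21.9 and 22.4 in WT clones, which overlapped (log2 change -0.43, and -0.17 without R98S clone 11). In complex V the largest change was that of Atp5s, which matches the rule by name but is not a subunit of the enzyme, with 22.3, 20.1 and 33.6 footprint counts in R98S and 24.8, 43.7 and 29 in WT clones. These overlapped as well (log2 change -0.34, and from -0.55 without R98S clone 35 to -0.11 without WT clone 29), and no complex V gene had ranges that did not overlap. The median footprint changes were -0.13 for complex II, 0.15 for complex III, -0.15 for complex IV and 0.02 for complex V, beside 0.01 over all genes tested. With 1 clone left out these medians ranged from -0.17 to -0.07 for complex II, 0.06 to 0.18 for complex III, -0.21 to -0.04 for complex IV and -0.03 to 0.07 for complex V. Complex II was nearest to 0 without WT clone 28, complex III without R98S clone 35 and complex IV without WT clone 36, and complex V was below 0 without WT clone 28. With chromosome medians removed complex II was at -0.06 and complex III at 0.05.

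**Figure D3:**
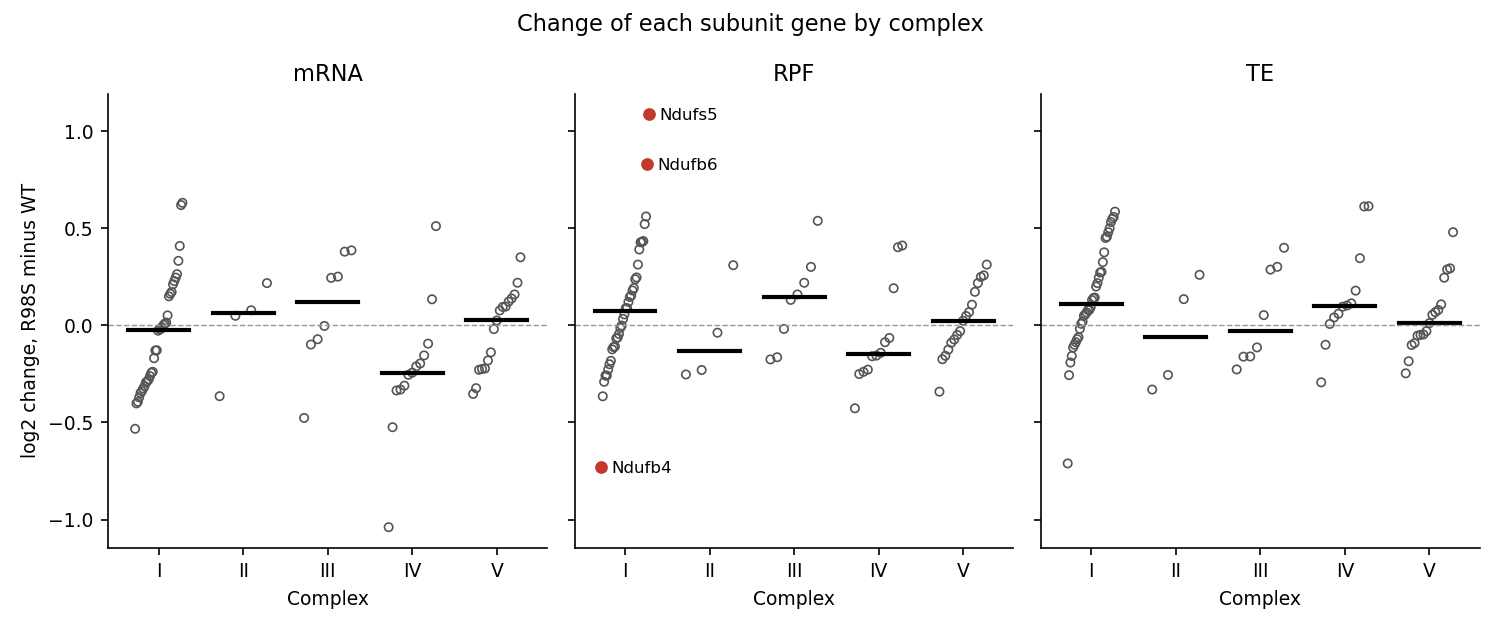
log2 change (R98S minus WT) of each tested subunit gene in mRNA, footprints (RPF) and footprints per mRNA (TE), by complex. Filled red points have an adjusted p under 0.1, open points do not, and black bars are medians, which lie between −0.24 and 0.15.

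In mRNA, 0 of the 78 subunit genes tested passed the threshold in limma, where 6.94% of 11344 genes did (3.03% higher and 3.91% lower in R98S). At an unadjusted p under 0.05 there were 9, and the share of all genes at that level is not given here or below. Of the subunit genes edgeR called 0, where it called 805 of all 11344 genes. DESeq2 called 2, Cox5b and Ndufs5, where it called 1283 of all genes. With 1 clone left out, the number at that unadjusted level ranged from 1 without R98S clone 11 to 10 without WT clone 36. For 22 genes the mRNA values of R98S and WT clones did not overlap (9 higher and 13 lower), and 23.5% of all genes were of this kind. Cox5b, a subunit on the matrix side of complex IV, was at 3278, 2866 and 2623 in R98S and 1893, 2139 and 2102 in WT clones. All R98S values lay above all WT values, with a log2 change of 0.51 (SE 0.16, adjusted p = 0.127), and 80.1% of its coding windows occurred elsewhere in the genome.

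By complex, the largest mRNA changes after that of Ndufs5 were as follows. Sdhd of complex II was at 3156, 3079 and 3373 in R98S and 5137, 3762 and 3623 in WT clones, with every R98S clone lower (log2 change -0.36, adjusted p = 0.33). Uqcrfs1, the Rieske iron-sulfur protein of complex III, was at 1862, 1923 and 2371 and 3619.9, 2417 and 2614, also without overlap (log2 change -0.48, adjusted p = 0.244). In both, WT clone 28 held the highest value, and without it the changes were -0.21 and -0.30. Cox7a1 was at 15.9, 31.1 and 21.5 in R98S and 69.8, 42.1 and 33.7 in WT clones, with R98S lower throughout (log2 change -1.04, adjusted p = 0.237, and a change of -0.75 without WT clone 28). Atp5s was at 105, 80.3 and 87.7 and 179.9, 106 and 80.7, and these ranges overlapped (log2 change -0.35). Its change rested on WT clone 28, without which it was -0.04, and it was -0.61 without WT clone 36.

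The median mRNA changes were -0.02 for complex I, 0.06 for complex II, 0.12 for complex III, -0.24 for complex IV and 0.03 for complex V, with 0.01 over all genes. Complex IV stood lowest, with 11 of its 13 genes below 0, but without WT clone 28 its median was -0.02 and 6 of 13 were above 0. Without that clone, complex I was at 0.09 and complex III at 0.28, and limma called 4 subunit genes, Ndufb10, Ndufs5, Uqcrh and Uqcrq, all higher in R98S. Of all 11344 genes it then called 1109, in place of 787 with every clone. Over the 78 subunit genes the number above 0 moved from 33 to 52, where 51.4% and 50.7% of all genes were above 0. It was 40 without R98S clone 13. With 1 clone left out the median ranged from -0.16 to 0.09 for complex I, 0.01 to 0.08 for complex II, -0.03 to 0.28 for complex III, -0.35 to -0.02 for complex IV and -0.11 to 0.08 for complex V. It was above 0 in complex I without R98S clone 13 or WT clone 28, below 0 in complex III without WT clone 29, and below 0 in complex V without R98S clone 35, WT clone 29 or WT clone 36. With chromosome medians removed it was below 0 in complexes II (-0.13) and V (-0.03).

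For translational efficiency (TE), taken per clone as log2 footprints minus log2 mRNA, 77 subunit genes were tested and limma called 0, where 0.0221% of 9043 genes passed. At an unadjusted p under 0.05 there were 2, Ndufb4 and Ndufb5, again without the share of all genes at that level. A DESeq2 interaction model called 0 subunit genes and 6 of all 9043 genes. With 1 clone left out, the number at that unadjusted level ranged from 0 without R98S clone 11 to 12 without WT clone 36. Ndufb4 had the lowest TE change, -0.71 (SE 0.24, adjusted p = 0.629). That of Ndufb5 was 0.56 (SE 0.24, adjusted p = 0.629), and 0.35 without WT clone 28. TE values of R98S and WT clones did not overlap for 7 of 77 genes, Ndufb4, Ndufb6 and Ndufs5 among them, and for 14.8% of all genes. The median TE change was 0.11 for complex I, -0.06 for complex II, -0.03 for complex III, 0.10 for complex IV and 0.01 for complex V.

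Of the 77 TE changes 51 were above 0 (66.2%), where 49.8% of all 9043 genes were. This direction depended most on WT clone 28, and also on R98S clone 13. Without R98S clone 13, 41 of 77 were above 0 (53.2%), where 49.6% of all genes were. Relative to the mean of WT clones, the median TE of complex I was 0.18, 0.29 and 0.01 in R98S clones 11, 13 and 35 and -0.44, 0.14 and 0.30 in WT clones 28, 29 and 36. For complex IV the values were 0.17, 0.25 and -0.06 in R98S and -0.47, 0.15 and 0.32 in WT clones. WT clone 28 lay below every other clone in both, and WT clone 36 lay highest. Without WT clone 28, 29 of 77 genes were above 0 and the medians of complexes I, IV and V turned to -0.09, -0.12 and -0.08. With 1 clone left out the median ranged from -0.09 to 0.27 for complex I, -0.10 to 0.01 for complex II, -0.04 to 0.18 for complex III, -0.12 to 0.26 for complex IV and -0.08 to 0.20 for complex V. It was above 0 in complex II without WT clone 28 and in complex III without R98S clone 35, WT clone 29 or WT clone 36, and below 0 in complex V without R98S clone 13. In complexes I, III, IV and V the SD between WT clones, 0.39 for complex I, was larger than the difference between the genotypes.

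**Figure D4:**
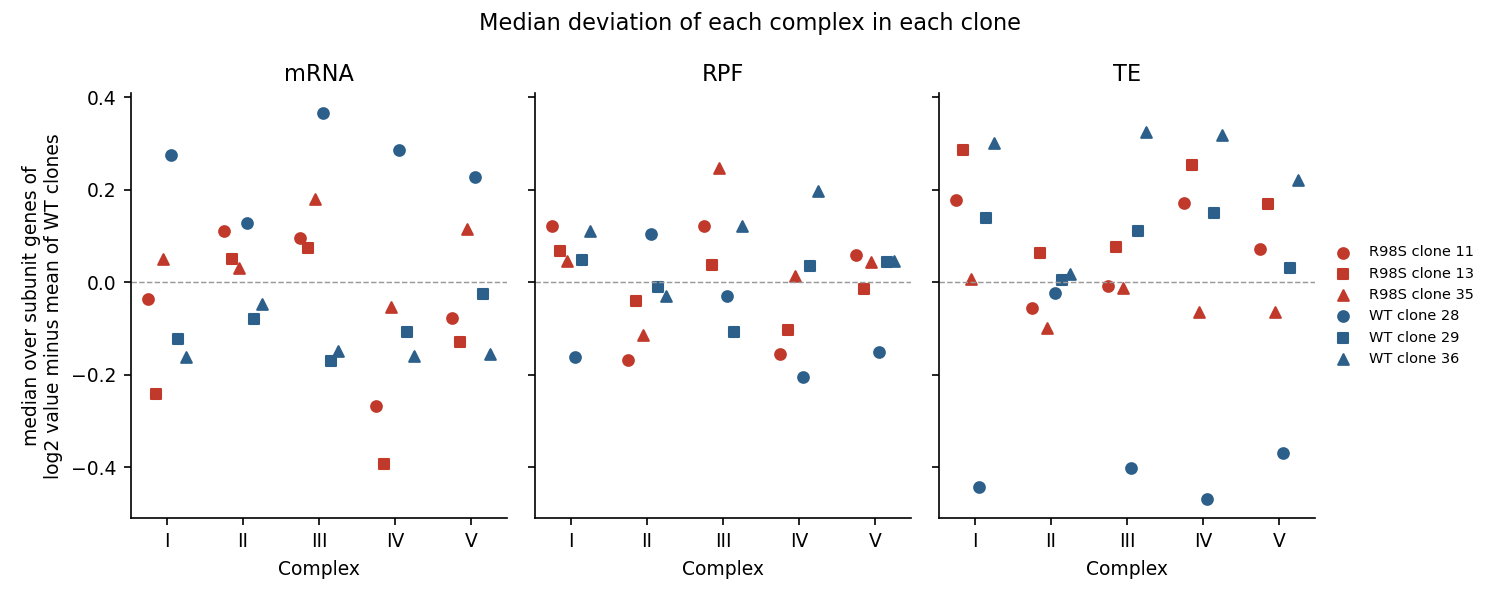
Median over the subunit genes of each complex of the log2 value minus the mean of the WT clones, in mRNA, footprints (RPF) and TE, with 1 point per clone. WT clone 28 (blue circle) lies highest in mRNA in complexes I to V and lowest in TE in complexes I, III, IV and V, at −0.44 for complex I.

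The complexes were next compared by how many footprints their mRNAs carried, as RPF per counted coding base over mRNA per exon base on the log2 scale, given as the difference from the median of all genes with TE. The mRNA and footprint tables were normalized separately, so only differences between genes are read from this ratio. In WT clones, 67 of the 77 subunit genes lay above that median. The medians were 0.98 ± 0.33 (SD, n = 3) for complex V, 0.96 ± 0.18 for complex II, 0.88 ± 0.29 for complex I, 0.86 ± 0.47 for complex IV and 0.68 ± 0.48 for complex III. The first and the last differed by less than the SD of either between clones, and no order of the complexes was shared by all WT clones: complex II was first in WT clone 28, complex V in WT clone 29 and complex IV in WT clone 36. With the lengths of the longest coding transcript in place of the union over transcripts, complex V was at 0.51 ± 0.41 and lowest in every WT clone. Over the subunits with under 50% of their 30-base coding windows found elsewhere in the genome, a choice made after seeing the data, complex III was first at 1.04, and complex V was at 0.87. In R98S clones the medians ran from 0.61 ± 0.18 for complex III to 0.96 ± 0.11 for complex IV.

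Single genes stood much further apart than complexes. Cox7a2l, which binds respiratory supercomplexes, had an abundant mRNA of 5132 to 7251 normalized counts over the 6 clones but only 35.3 to 51 footprint counts. Its footprints per mRNA were -4.85, -4.99 and -5.23 in R98S and -5.46, -4.89 and -4.86 in WT clones, the lowest of the subunit genes in every clone and at percentile 0.01 of all genes in WT, and 58.9% of its coding windows occurred elsewhere in the genome. Cox6c had the highest WT mean of complex IV, with 1.23, 2.49 and 2.66 in WT clones, but 0.43 in place of the WT mean of 2.12 when the lengths of the longest coding transcript were used. Of its coding windows 79.6% occurred elsewhere. Ndufb2, an accessory subunit of complex I, was the opposite of Cox7a2l, with 167 to 220.2 mRNA and 294 to 391 footprint counts. Its footprints per mRNA were 5.14, 5.26 and 5.32 in R98S and 4.94, 5.47 and 5.64 in WT clones, at percentile 99.96 of all genes in WT. Both extremes held with either choice of transcript length.

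Elsewhere the range was narrower. At the low end of complex I by the mean of WT clones lay Ndufb9, at -1.16, -0.20 and -0.17 in WT clones 28, 29 and 36, and Ndufb11, at -1.28, -0.38 and 0.15, which did not differ beyond their spread. In complex II, Sdhd had the lowest WT mean, with -0.02, 0.28 and 0.47, and Sdhc the highest, with 2.09, 2.78 and 2.83, and both are membrane anchors. The flavoprotein Sdha was below Sdhd in WT clone 36 (0.30). In complex III, Uqcrb had the lowest mean, with -1.33, -0.10 and -0.02, and Uqcrq the highest, with 1.66, 2.26 and 2.47. In complex V these were Atp5g2, with -0.51, -0.82 and -0.19, and Atp5e, the epsilon subunit of the central stalk, with 3.01, 3.18 and 3.84. In complexes II, III and V the gene with the highest mean exceeded that with the lowest in every WT clone. Of the coding windows, 88.3% for Uqcrb, 100% for Atp5g2 and 46.6% for Ndufb11 occurred elsewhere in the genome, so their places are uncertain. Several of these ranks turned with the lengths of the longest coding transcript. Atp5e was then at a WT mean of 1.86, in place of 3.34, and below Atp5d (2.25) and Atp5j2 (2.06). At the low end, Ndufa12 (-0.55) was below Ndufb9 (-0.48), Sdha (0.58) below Sdhd (0.82) and Uqcrh (-0.64) below Uqcrb (-0.62). Windows found elsewhere made up 88.6% for Ndufa12, 56.2% for Atp5j2 and 37.6% for Uqcrh.

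**Figure D5:**
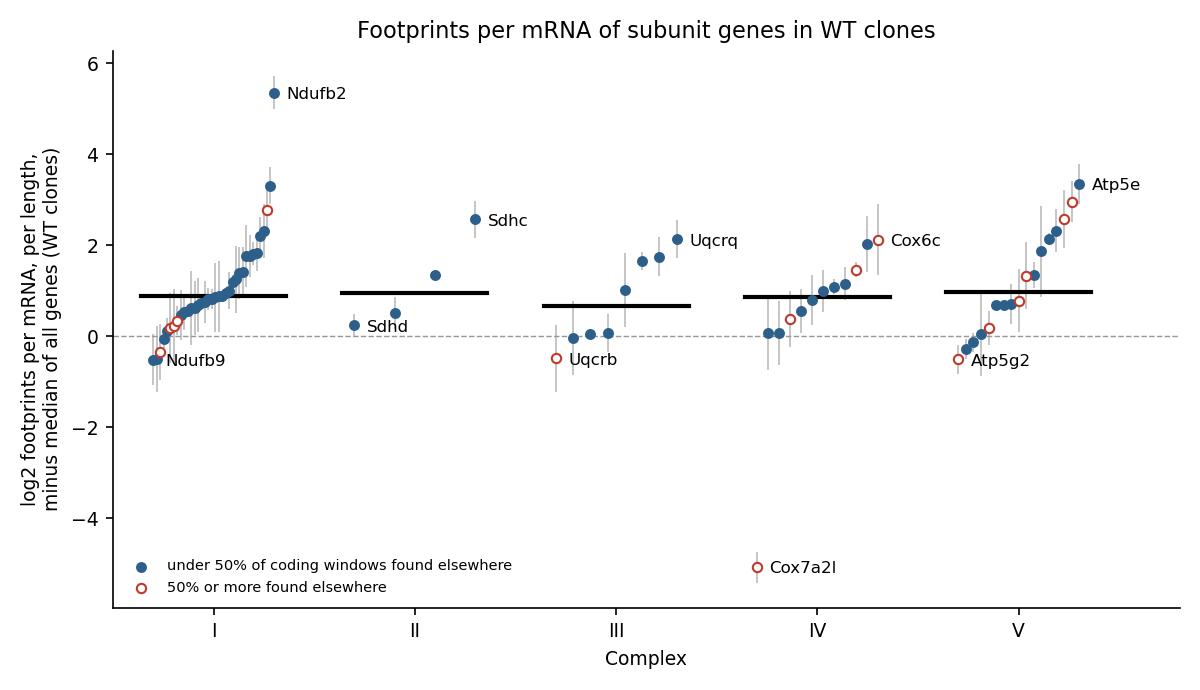
Footprints per mRNA, per length, of each subunit gene in WT clones as the log2 difference from the median of all genes (points, mean; grey bars, SD over 3 clones), by complex, with the median of each complex (black bars). Cox7a2l lies at −5.07 and Ndufb2 at 5.35, and open red points mark genes with 50% or more of their coding windows found elsewhere in the genome.

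Coding sequence found elsewhere was common in this group. For 16 of the 79 genes (20.3%) 50% or more of the counted coding windows occurred elsewhere in the genome, against 6.49% of 9014 genes with TE. For Atp5g1, Atp5g2, Atp5l, Cox7c and Ndufb4 every window did, so their values are uncertain. The median footprints per mRNA in WT clones were 0.36 for the 16 genes and 0.88 for the other 61 tested, and over all genes -0.30 and 0.02. Reads placed on more than 1 copy were filtered by mapping quality, and their part in these differences was not tested.

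Within a complex, subunit levels per length were spread widely although most subunits are present once in the enzyme. The SD over subunits of log2 footprints per coding kilobase in WT clones was 2.36 ± 0.02 in complex IV, 2.15 ± 0.11 in complex V, 1.00 ± 0.10 in complex III, 0.99 ± 0.03 in complex I and 0.78 ± 0.06 in complex II. For mRNA per exon kilobase the SDs were 1.82 ± 0.05 in complex IV, 1.82 ± 0.12 in complex V, 0.68 ± 0.10 in complex III, 1.31 ± 0.04 in complex I and 1.30 ± 0.08 in complex II. In every WT clone the SD was smaller for footprints than for mRNA in complexes I and II and larger in complex III. In complexes IV and V the footprint SD rested on a pair of genes with few footprints in each. Without Atp5s and Atp5sl, which are not subunits of the enzyme, the SDs in complex V were 1.28 ± 0.10 for footprints and 1.35 ± 0.12 for mRNA, which overlapped between clones. Without Cox7a1 and Cox7a2l, a choice made after seeing the data, those in complex IV were 0.77 ± 0.07 for footprints and 1.15 ± 0.05 for mRNA, and the footprint SD was the smaller in every WT clone. The SDs of R98S and WT clones did not overlap in 3 cases. R98S clones were lower for complex I footprints, at 0.86 ± 0.04, and complex II mRNA, at 1.08 ± 0.06, and higher for complex IV footprints, at 2.52 ± 0.07, and these differences were not tested.

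Subunits with tissue isoforms were represented by the widely expressed form. Cox4i1 had 5056 to 7914 mRNA counts, Cox6a1 2558 to 4195, Cox6b1 3314 to 4785, Cox7a2 2229 to 3859, Cox7b 3867 to 4992 and Cox8a 5245 to 10234 over the 6 clones. The muscle forms Cox6a2, at 13.1 to 32.2, and Cox7a1 were low but detected, and Ndufa4l2 had 0 to 21.4 counts where Ndufa4 had 3237 to 6652. Of the 8 symbols listed for mRNA only, Cox7b2 and Cox8c were listed at 0 in every library, Cox4i2, Cox6b2 and Cox8b were at or under 10.7, and the remaining 3 were Atp5l pseudogenes at or under 11. The muscle and heart markers Myh6 and Myh7 were at or under 2.58 in mRNA. Actc1 and Tnnt2 were listed at 0, although Actc1 had 1.68 to 3.82 footprint counts over the 6 clones. Ckm was at 292 to 615, and its footprints, 4225, 4644 and 4022 in R98S and 2512, 2638 and 2277 in WT clones, rose (adjusted p = 0.0273, and up to 0.136 without R98S clone 13). The call was also missed without R98S clone 11 (0.103) or WT clone 36 (0.101). Of the genes for the c-ring of complex V, footprints of Atp5g3 (2042 to 3357) exceeded those of Atp5g2 (287 to 539) and Atp5g1 (143 to 286), the latter pair having no unique coding window.

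Genes around the complexes were read from lists. Of 8 subunits and carriers that the naming rule misses, limma called 1 in footprints, Cyc1, the cytochrome c1 of complex III, and 0 in mRNA (0 at an unadjusted p under 0.05, and 0 by DESeq2 or edgeR), where 7.76% and 6.94% of all genes passed. Cyc1 had 1787, 1970.4 and 1783 footprint counts in R98S and 1193, 1144 and 1405 in WT clones, with no overlap (log2 change 0.57, SE 0.17, adjusted p = 0.0866). Its mRNA counts overlapped (log2 change 0.00, and from -0.15 without WT clone 29 to 0.20 without WT clone 28). Leaving out any 1 of the 6 clones ended the footprint call, at adjusted p from 0.102 (without R98S clone 35) to 0.287 (without R98S clone 13). In mRNA the largest change was that of cytochrome c, Cycs, at 1487, 1412 and 2168 in R98S and 1869, 918 and 1368 in WT clones, which overlapped (log2 change 0.32, and 0.05 without WT clone 29, 0.12 without R98S clone 35 and 0.56 without WT clone 28). The 13 subunits encoded by mitochondrial DNA were listed for mRNA and not for footprints. They summed to 544667, 458399 and 484712 normalized counts in R98S and 612184, 530237 and 467125 in WT clones. These ranges overlapped, and limma called 0 of the 11 tested (0 at an unadjusted p under 0.05, and 0 by DESeq2 or edgeR). The most abundant, mt-Co1, had 148088, 148047 and 117675 counts in R98S and 213614, 206896 and 149232 in WT clones. It was lower in every R98S clone, alone among the 11 in having ranges that did not overlap, but did not pass (log2 change -0.45, adjusted p = 0.367). The largest change was that of mt-Co3 (-0.63), listed at only 11.9, 2.46 and 11.2 counts in R98S and 10.7, 12.4 and 11.8 in WT clones. It rested on R98S clone 13, without which it was -0.01.

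Of a list of 48 assembly factors, 44 were in the mRNA table and 42 in the footprint table. Here limma called 4 of 41 tested in footprints and 2 of 40 tested in mRNA, where 7.76% and 6.94% of all genes passed, so both counts lay near the shares of all genes. All of these calls were higher in R98S, where 3.13% and 3.03% of all genes were called in that direction. Ndufaf6, a complex I assembly factor, had 155, 134 and 138 footprint counts in R98S and 70.7, 68.7 and 81.7 in WT clones, without overlap (log2 change 0.94, adjusted p = 0.0416). It lies on chromosome 4, as do Ndufs5 and Ndufb6. Tmem126b, also of complex I assembly, had 96.3, 89.7 and 65.5 in R98S and 38.2, 39.6 and 47.4 in WT clones, separated in the same way (log2 change 0.98, adjusted p = 0.0739), and its mRNA rose as well (0.96, adjusted p = 0.0662). Uqcc2, which acts on complex III, had 1085, 951 and 859.8 and 601, 584 and 692 (log2 change 0.62, adjusted p = 0.0753). Again no R98S clone lay within the WT range. The mRNA change of Uqcc2 was -0.02, and from -0.16 without R98S clone 11 to 0.24 without WT clone 28. Coa5, of complex IV assembly, had 209, 194 and 77.2 in R98S and 31.5, 56.2 and 56.7 in WT clones, with the largest footprint change of the list (1.63, adjusted p = 0.0459). Coa4 was called in mRNA only, at 272, 247 and 199 and 126, 132 and 125 (log2 change 0.89, adjusted p = 0.0734). Each of these calls was lost without R98S clone 11 or without R98S clone 13. The highest adjusted p with 1 clone left out was 0.172 for Ndufaf6, 0.262 for Tmem126b, 0.258 for Uqcc2 and 0.202 for Coa5 in footprints, and 0.273 for Tmem126b and 0.316 for Coa4 in mRNA. The footprint calls were also lost without WT clone 28, those of Tmem126b and Uqcc2 without WT clones 29 or 36 too, the mRNA calls without WT clone 36, and that of Coa4 without WT clone 29 or without a filter on low values. With chromosome medians removed, Tmem126b missed the threshold in footprints and mRNA and Coa4 in mRNA. Both lie on chromosome 7, and the medians removed there were 0.20 in footprints and 0.19 in mRNA, less than the changes given above. Whether these genes differ from the subunits was not tested.

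The tricarboxylic acid cycle and the regulators of mitochondrial genes gave no calls with all clones included. Of all genes, limma called 6.94% in mRNA and 7.76% in footprints. Of 13 cycle enzymes tested, limma called 0 in mRNA (1 at an unadjusted p under 0.05) and 0 in footprints (0 at that level), and DESeq2 and edgeR called 0. Fumarate hydratase, Fh1, had the largest mRNA change, 0.43, from 1498, 1695 and 1650.3 counts in WT to 2278, 2318 and 1941 in R98S clones. Citrate synthase, Cs, had the largest footprint change, -0.37, with 1271, 1432 and 1400.5 counts in R98S and 2181, 1489.8 and 1709 in WT clones. Both pairs of ranges were separate, but the adjusted p-values were 0.191 and 0.294, and the change of Cs was -0.22 without WT clone 28. Of 12 regulators tested, limma called 0 in mRNA (1 at an unadjusted p under 0.05) and 0 in footprints (0 at that level), and DESeq2 and edgeR called 0. The mitochondrial transcription factor Tfb2m had the largest mRNA change (0.53), at 380.3, 391 and 426 counts in R98S and 169, 311 and 400.4 in WT clones. Gabpb2, which encodes a partner of the ETS factor Gabpa, had the largest footprint change (-0.40), at 230.3, 153 and 205 and 249, 293 and 228. Both overlapped between genotypes, and the change of Tfb2m was 0.18 without WT clone 28 and that of Gabpb2 -0.23 without R98S clone 13. In mRNA the change of Gabpb2 was -0.37. Without WT clone 28 it was -0.59 and limma called it (adjusted p = 0.0702). Ppargc1a, a coactivator of mitochondrial biogenesis, was at or under 0.86 counts in every mRNA library.

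Promoters were available for 66 of the 79 genes in a RefSeq table of GRCm38 that holds 250 bases before and 50 bases after each transcription start. The core of the site of NRF-1, a factor known for binding promoters of respiratory genes, was searched as GCGCANGCG on both strands. It occurred in 20 of the 66 genes (30.3%) and in 7.03% of 27025 genes in the table. These sets are unlike, since the 66 genes had to be listed for mRNA and footprints and the 27025 did not. The share among genes listed for both was not counted, so the difference is not read as a trait of subunit genes. By complex these were 8 of 32 genes of complex I, 2 of 3 of complex II, 2 of 5 of complex III, 1 of 10 of complex IV and 7 of 16 of complex V. The 250 bases before the start are shown for the genes that changed in footprints, on the minus strand at chr4:123718187-123718436 (Ndufs5), chr4:40279422-40279671 (Ndufb6) and chr16:37654369-37654618 (Ndufb4), with the NRF-1 core in capitals.
Ndufs5 promoter: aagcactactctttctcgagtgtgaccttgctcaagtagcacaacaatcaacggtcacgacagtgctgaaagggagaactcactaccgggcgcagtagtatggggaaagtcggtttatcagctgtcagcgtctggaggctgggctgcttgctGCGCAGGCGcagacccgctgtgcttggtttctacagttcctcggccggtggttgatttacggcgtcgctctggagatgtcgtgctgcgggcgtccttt
Ndufb6 promoter: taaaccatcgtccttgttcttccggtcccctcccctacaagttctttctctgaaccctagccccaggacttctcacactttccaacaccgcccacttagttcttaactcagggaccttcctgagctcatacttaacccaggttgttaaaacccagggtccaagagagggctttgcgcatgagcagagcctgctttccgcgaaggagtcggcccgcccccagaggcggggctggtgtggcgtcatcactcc
Ndufb4 promoter: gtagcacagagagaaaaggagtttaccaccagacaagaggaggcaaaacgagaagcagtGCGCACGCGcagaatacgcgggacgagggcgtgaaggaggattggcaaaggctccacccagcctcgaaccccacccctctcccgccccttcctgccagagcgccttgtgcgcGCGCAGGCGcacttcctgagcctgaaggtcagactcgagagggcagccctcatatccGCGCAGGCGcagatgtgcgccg
The core occurred 1 time in the window of Ndufs5, which rose in footprints, 3 times in that of Ndufb4, which fell, and not in that of Ndufb6. The windows are placed by the RefSeq start. In GENCODE M21 the Ndufb4 gene, on the minus strand, begins at chr16:37654453, inside its window. By that annotation the cores at -79 and -22 from the RefSeq start lie within the gene, and the core at -191 lies before it. A match of letters is a description of the sequence and not a bound site, and no match says only that these letters are not in the window.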

How the data were processed

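Ribosome footprinting and matched mRNA sequencing libraries were made from 3 RPL10 R98S and 3 RPL10 WT clones of Ba/F3 cells. The deposited signal values are gene counts that the authors divided by DESeq2 size factors, in separate mRNA and footprint tables. Per the study's methods, reads were aligned to mm10 with TopHat2 2.0.11, alignments with mapping quality of at least 10 were kept, mRNA reads were counted over exons, and footprint reads over coding sequence without the first 15 and last 5 codons. Technical replicates of each footprint library (3 per clone) had been merged. Whole reads were recovered from the values (100% within 0.01) and used for edgeR and DESeq2, which called 805 and 1283 genes in mRNA and 808 and 1087 in footprints.

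limma 3.58.1 with a trended variance was fitted to log2(value + 1), R98S minus WT, for genes with a mean of at least 10, and fold changes are on that scale, which understates changes of low genes. TE was log2 footprints minus log2 mRNA in each clone, for genes with at least 10 normalized counts in every library. Benjamini-Hochberg adjusted p under 0.1 was a call. edgeR 4.0.16, DESeq2 1.42.0, R 4.3.3, Python 3.11.15, numpy 2.4.6 and pandas 2.3.3 were used. The limma fits were also run on simulated counts with a common dispersion, no clone effects and no pairing of mRNA and footprint libraries. That run cannot show how the fits handle the spread between clones in these data. The labels give each library its clone number, which pairs the mRNA and footprint libraries of the same clone. Across 9043 genes, their deviations from the genotype mean correlated at 0.609, 0.656 and 0.642 in R98S clones 11, 13 and 35. In WT clones 28, 29 and 36 the correlations were 0.218, 0.681 and 0.311, so the libraries of WT clones 28 and 36 matched least. Exon and coding lengths came from GENCODE M21 as the union over transcripts, and all 79 genes were matched, 1 by a synonym. Coding windows of 30 bases were searched in GRCm38 with no mismatch. Genes named are those called in mRNA, footprints or TE, the largest change of each complex in mRNA and in footprints, the highest and lowest footprints per mRNA of each complex, tissue isoforms, and in related lists the called genes and the largest change. Cox5b, Ndufb5, Ndufb11, Ndufa12, Sdha, Sdhb, Uqcrh, Atp5d, Atp5j2, Sco2, Pet117, mt-Co1, Ppargc1a, genes counted under other settings and the markers singled out from their lists were named after their values were seen. The members and lists were chosen with earlier results of these data known. Alternatives were another pseudocount, filter, scaling, tool, transcript length and grouping, chromosome medians removed, and each clone left out. Promoters came from RefSeq (GRCm38.p6), matched by symbol for 66 genes. Among these, Atp5f1, Atp5s and Atp5sl were matched under the other symbols Atp5pb, Dmac2l and Dmac2. The names of the genes without a match are not reported here. The ETS and YY1 cores, also planned and searched, are not reported here.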

Additional observations from a re-analysis of the deposited data

How the results depend on the processing

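Over all alternatives, 253 values stayed within 1.5 times the main count or, for medians and SDs, within 1 SD between clones of the main value, and 26 lay outside. DESeq2 called 2 subunit genes higher in mRNA and 4 in footprints, and removing chromosome medians called 1 in mRNA. Over all genes and both directions, DESeq2 called 1283 of 11344 in mRNA and 1087 of 9580 in footprints. Removing chromosome medians called 683 of 11344 in mRNA. With 1 clone left out, the subunit genes called higher ranged from 0 to 4 in mRNA and from 0 to 2 in footprints, and those lower in footprints from 0 to 1. Calls over all genes, in both directions, then ranged from 316 to 1109 of 11344 in mRNA and from 226 to 1156 of 9580 in footprints. The median mRNA change of complex IV then ranged from -0.348 to -0.0247 and the median TE change of complex II from -0.0954 to 0.00619. Removing chromosome medians gave complex II -0.13 in mRNA and -0.0563 in footprints. Footprints per mRNA without length correction were 1.16 for complex II, 0.36 for complex IV and 0.39 for complex V, and with the longest coding transcript 0.51 for complex V. With that transcript the SD over complex II subunits in mRNA was 1.21. With Ndufa4 in complex IV and without Atp5s and Atp5sl, the SDs over subunits were 0.906 for footprints in complex I, 1.75 for mRNA and 2.30 for footprints in complex IV, and 1.35 and 1.28 in complex V. Without Cox7a1 and Cox7a2l, chosen after seeing the data, those of complex IV were 1.15 and 0.772. Why these moved was not tested. Footprints per mRNA over subunits with under 50% of windows found elsewhere, an alternative chosen after seeing the data, moved by less than the SD between clones, though complex III went from 0.68 to 1.04, from last to first. Without the replicate block that pairs libraries within a clone, an alternative for TE alone, limma called 0 subunit genes, as with the block, and 3 of 9043 genes in place of 2. For genes named singly, 943 comparisons kept their side of the threshold, 48 lost a call, 17 gained 1 and 0 turned direction past the threshold. Depth limits low genes most in the mRNA library of WT clone 28, where 1 read is worth 2.69 normalized counts.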
